A study of Homo sapiens with 18 samples.

Results

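The genes described here are 9 members of the MHC class I pathway: the heavy chain genes HLA-B, HLA-C, HLA-E and HLA-F, the light chain gene B2M, the peptide loading genes TAP1, TAP2 and TAPBP, and the regulator NLRC5. They were chosen by symbol, and each matched 1 Ensembl gene ID of the 40184 in the deposited table. The table held 18 RNA-seq libraries from 3 human acute myeloid leukaemia cell lines, with 3 replicates in each of 6 groups. Molm-14 and MV4-11 have the genotype FLT3-ITD, an internal tandem duplication in a receptor tyrosine kinase gene, and SKNO-1 has the genotype KIT N822K, a mutation in another receptor tyrosine kinase gene. Each line was given the vehicle DMSO or 500 nM RMC-4550 for 24 h, and only the SKNO-1 medium held GM-CSF, at 10 ng/mL, so that line and growth factor cannot be told apart. RMC-4550 is an allosteric inhibitor of SHP2, the phosphatase encoded by PTPN11 that passes signals from receptor tyrosine kinases to RAS. The labels call the replicates biological but do not say how the cultures were separated, and the p-values measure the spread between these libraries.

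An MHC class I molecule is a heavy chain paired with beta-2 microglobulin, the product of B2M, and it shows a peptide from inside the cell to cytotoxic T cells. The proteasome cuts proteins into peptides, the transporter made of TAP1 and TAP2 carries them into the endoplasmic reticulum, and tapasin, the product of TAPBP, holds empty class I molecules beside the transporter until a peptide binds. NLRC5 is a coactivator that is recruited to class I promoters, as CIITA is to class II promoters, and both sets of promoters can respond to interferon. In leukaemia, class I molecules display the peptides through which donor T cells can recognise leukaemic cells. HLA-E and HLA-F are nonclassical heavy chains that are also read by receptors of natural killer cells.

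Read totals lay between 17434810 and 19959917 per library. In 14 libraries the mitochondrial share of reads lay between 5.06% and 7.004%. In the other 4 it was over 10%, from 10.5% to 14.99%: replicate 2 of Molm-14 with RMC-4550, replicates 1 and 3 of MV4-11 with DMSO and replicate 1 of MV4-11 with RMC-4550. Values without these 4 libraries are given beside some, not all, of the results whose calls they change. The low-mitochondrial libraries below are the other 14. In SKNO-1, 7818 of all genes were called by limma over these, against 3969 with all libraries. The shares of all genes called that are given below are for all 18 libraries. List counts over the low-mitochondrial libraries thus have no such share beside them. The T cell markers CD3D and CD3E had at most 1 read in any library, and EPCAM, of epithelial cells, at most 2. The myeloid markers SPI1, CEBPA, CSF3R and CD33 were each above 30 CPM (counts per 1000000 reads of the effective library) in every library, while MPO and ANPEP were low in Molm-14 and MV4-11. The 6 myeloid markers summed to between 637 and 648 CPM in Molm-14 with DMSO and between 914 and 1191 with RMC-4550, and in SKNO-1 to between 1085 and 1157 and between 1204 and 1396. The 13 markers of other cell types summed to between 162 and 170 CPM in SKNO-1 with DMSO and between 214 and 219.8 with RMC-4550, and overlapped between groups in the other lines. The part of these sums in the members' changes was not tested. The fusion partner gene RUNX1T1 had 13.2 to 14.4 CPM in SKNO-1 with DMSO and no read in the DMSO libraries of the other lines.

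With DMSO, HLA-B, HLA-C and B2M were the most abundant members per length in all 3 lines. Divided by the length of a GENCODE 29 transcript, the mean level in Molm-14 was 683 CPM per kb for HLA-B, 645 for HLA-C, 589 for B2M, 182 for HLA-E and 130.1 for TAPBP. The corresponding levels were 24.0 CPM per kb for TAP1, 8.62 for NLRC5, 8.58 for TAP2 and 0.527 for HLA-F. In MV4-11 the mean level of B2M, 507 CPM per kb, was next to that of HLA-C, 497, and in SKNO-1 B2M, 421, lay between HLA-B, 458, and HLA-C, 329. In Molm-14 the transporter genes were thus below HLA-B, HLA-C, HLA-E, B2M and TAPBP and above HLA-F. The TAP2 level was divided by its whole transcript, most of which it shares with the gene AL669918.1. If shared reads were not counted, that level is too low, and its place in this order is uncertain.

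HLA-B and HLA-C encode classical heavy chains and lie beside each other on chromosome 6, on the minus strand (GRCh38, chr6:31269491-31357188 and chr6:31268749-31272130), where the annotated spans overlap. Of the 50-base windows of their transcripts, 2.54% for HLA-B and 6.79% for HLA-C also occur in transcripts of other genes, most of them other class I genes. At 100 bases the shares were 0.0% and 0.28%. The polymorphism of these genes means that reads from the alleles of each line may align less well than reads from the reference allele, and its part in the levels between lines was not tested.

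The sequence before the start of 7 members was in the promoter table from RefSeq (GRCh38.p14), and HLA-E and NLRC5 were not matched. These windows are shown because the members share promoter elements by which class I genes are known to be controlled. The first 2 are those of the classical heavy chains, with capitals on matches, on either strand, to the kappaB motif (GGGA, 1 free base, T, 2 free bases, CC), the short interferon element (GAA, 2 free bases, GAAA), TGACG and CCAAT.
HLA-B, chr6:31357189-31357429, minus strand: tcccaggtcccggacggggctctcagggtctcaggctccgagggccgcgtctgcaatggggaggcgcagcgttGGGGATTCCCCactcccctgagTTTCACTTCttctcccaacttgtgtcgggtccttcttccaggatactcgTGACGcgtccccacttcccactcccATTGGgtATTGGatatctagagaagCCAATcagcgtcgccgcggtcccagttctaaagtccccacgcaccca
HLA-C, chr6:31272131-31272342, minus strand: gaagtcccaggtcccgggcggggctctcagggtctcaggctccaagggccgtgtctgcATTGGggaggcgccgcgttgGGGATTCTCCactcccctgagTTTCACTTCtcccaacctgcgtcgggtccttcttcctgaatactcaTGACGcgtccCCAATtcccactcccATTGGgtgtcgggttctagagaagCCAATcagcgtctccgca
Both windows hold kappaB, then the short interferon element, TGACG and CCAAT, and the HLA-C window has 1 further CCAAT match ahead of kappaB. Of 35093 RefSeq promoters of the same length, 4.45% hold the kappaB motif, 6.56% the short interferon element, 21.2% TGACG and 32.0% CCAAT. A match describes the letters and does not show that a factor binds.

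HLA-B had 1052, 1034 and 1083 CPM in the DMSO libraries of Molm-14, 1049, 985 and 1091 in those of MV4-11, and 664, 712 and 749.9 in those of SKNO-1. With RMC-4550 it had 1293, 1121 and 1278 CPM in Molm-14, 1093, 964 and 1067 in MV4-11, and 726, 826 and 819 in SKNO-1. In Molm-14 the groups did not overlap, and in the other lines they did. The log2 change was 0.22 ± 0.09 (SE, n = 3 and 3) in Molm-14, adjusted p = 0.0599 by limma, and it did not pass in MV4-11 (-0.00, adjusted p = 0.993) or SKNO-1 (0.16, adjusted p = 0.225). In a fit of the 14 low-mitochondrial libraries, the SKNO-1 change kept its size and passed (adjusted p = 0.0383). On leaving out the RMC-4550 replicate 2 of Molm-14, the change there was 0.28, adjusted p = 0.0205. In bulk libraries, fewer cells that express a gene and less RNA per cell cannot be told apart.

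HLA-C had 968, 980.02 and 1023 CPM in Molm-14 with DMSO and 1166, 803 and 1155 with RMC-4550. The low value, 803, is that of replicate 2, the library with 14.99% mitochondrial reads. In MV4-11 it had 723, 829 and 738 CPM with DMSO and 820.2, 861 and 934 with RMC-4550. In SKNO-1 it had 486, 501 and 528 CPM with DMSO and 614, 689 and 645 with RMC-4550, and these groups did not overlap. HLA-C rose with RMC-4550 in SKNO-1 by a log2 change of 0.36 ± 0.12 (SE, n = 3 and 3), which is 1.29-fold, adjusted p = 0.0356. That call was lost on leaving out any 1 of the 6 SKNO-1 libraries, with adjusted p from 0.0504 to 0.124. The change did not pass in Molm-14 (0.05) or MV4-11 (0.19). Without the 4 libraries over 10% mitochondrial reads, the Molm-14 change of HLA-C was 0.23, adjusted p = 0.0033.

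HLA-E (chr6:30489467-30494205, plus strand), whose product presents leader peptides of other class I chains to natural killer cell receptors, was called higher with RMC-4550 in 2 of the 3 lines, by similar amounts. In Molm-14 it had 464, 477 and 483 CPM with DMSO and 669, 475 and 654 with RMC-4550, where 475 is again replicate 2. MV4-11 had 392.3, 492 and 400.4 CPM with DMSO and 493, 554 and 562 with RMC-4550. SKNO-1 had 379, 364 and 371 CPM with DMSO and 477, 489 and 461 with RMC-4550. The groups overlapped in Molm-14 and did not in the other lines. HLA-E rose in Molm-14 by a log2 change of 0.32 ± 0.12, with an adjusted p of 0.0352. Its rise in SKNO-1 was 0.36 ± 0.12 (adjusted p = 0.0329). The change in MV4-11, 0.33 ± 0.12, did not pass (adjusted p = 0.0767). No pair of lines was called different in this change, with an interval of 2 SE from -0.32 to 0.34 for MV4-11 minus Molm-14 and from -0.29 to 0.37 for SKNO-1 minus Molm-14. The Molm-14 call was lost without any 1 of its libraries other than replicate 2 with RMC-4550, with adjusted p up to 0.135, and the SKNO-1 call without any 1 of its libraries, with adjusted p from 0.0650 to 0.0972. Among libraries with at most 10% mitochondrial reads, the log2 change was 0.48 in Molm-14, with 3 and 2 libraries, and 0.18 in MV4-11, with 1 and 2, where it passed (adjusted p = 0.0364). Without the libraries over that limit the response in MV4-11 was called lower than that in Molm-14 (difference -0.30, adjusted p = 0.0147). Fitting the mitochondrial share as a covariate gave -0.28 (adjusted p = 0.0167). The MV4-11 change itself passed without replicate 2 with DMSO (0.43, adjusted p = 0.0185).

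HLA-F (chr6:29722775-29738528, plus strand), a nonclassical heavy chain, was the member whose level differed most between lines. In Molm-14 it had 0.611, 0.692 and 1.28 CPM with DMSO, in MV4-11 9.69, 6.60 and 9.28, and in SKNO-1 8.49, 8.63 and 9.51. Every library of MV4-11 and SKNO-1 was above every library of Molm-14. The DMSO level was 9.98-fold higher in MV4-11 than in Molm-14 (log2 difference 3.32 ± 0.24, adjusted p = 1.0e-08) and 10.5-fold higher in SKNO-1 (3.40 ± 0.24, adjusted p = 2.7e-09). MV4-11 and SKNO-1 were not called different (log2 difference 0.08, interval of 2 SE from -0.40 to 0.56). That SE comes from 1 spread shared over all groups, including the Molm-14 libraries with few reads. With RMC-4550 it had 1.04, 0.769 and 1.07 CPM in Molm-14, 9.66, 8.50 and 8.37 in MV4-11 and 7.73, 10.1 and 10.8 in SKNO-1, overlapping with DMSO in each line. HLA-F overlaps the antisense gene HLA-F-AS1 over 535 exon bases. Whether the counting used strand is not given in the sources used here, and without strand reads from the pair cannot be told apart. HLA-F-AS1 had 0.692 to 1.00 CPM in Molm-14 with DMSO, 1.18 to 1.72 in MV4-11 and 0.872 to 1.38 in SKNO-1, and no level of it was called different between lines.

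B2M, on chromosome 15 (chr15:44711487-44718877, plus strand), encodes the light chain that every class I heavy chain needs. It had 1010.4, 999 and 1003 CPM in Molm-14 with DMSO and 1233, 1308 and 1318 with RMC-4550. MV4-11 libraries had 819, 877 and 899 CPM with DMSO and 1025, 903 and 949 with RMC-4550. SKNO-1 libraries had 691, 717 and 746 CPM with DMSO and 767, 748 and 779 with RMC-4550. All RMC-4550 libraries lay above the DMSO libraries of their line. B2M rose in Molm-14 by a log2 change of 0.36 ± 0.08 (SE, n = 3 and 3), which is 1.28-fold, adjusted p = 0.0013, and by 0.34 without replicate 2. Its MV4-11 change, 0.15, did not pass (adjusted p = 0.239). Neither did the SKNO-1 change, 0.09, with an adjusted p of 0.420. The B2M response was not called different between lines with all libraries. With the 14 low-mitochondrial libraries alone it was called lower than in Molm-14 for MV4-11 (-0.27, adjusted p = 0.0492) and SKNO-1 (-0.25, adjusted p = 0.0134). Its window holds a pair of overlapping interferon elements (GAAA, 2 free bases, GAAA) next to a kappaB motif, and 3.02% of the promoters hold at least 1 such element. Capitals mark these with TGACG and CCAAT.
B2M, chr15:44711267-44711486, plus strand: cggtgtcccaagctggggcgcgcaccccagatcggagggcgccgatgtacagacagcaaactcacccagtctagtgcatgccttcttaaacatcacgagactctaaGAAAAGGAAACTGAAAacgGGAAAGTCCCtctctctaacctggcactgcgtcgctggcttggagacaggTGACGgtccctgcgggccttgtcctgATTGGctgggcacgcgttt

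The plot of levels by library gives all 9 members on a scale from 0.

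**Figure D1:**
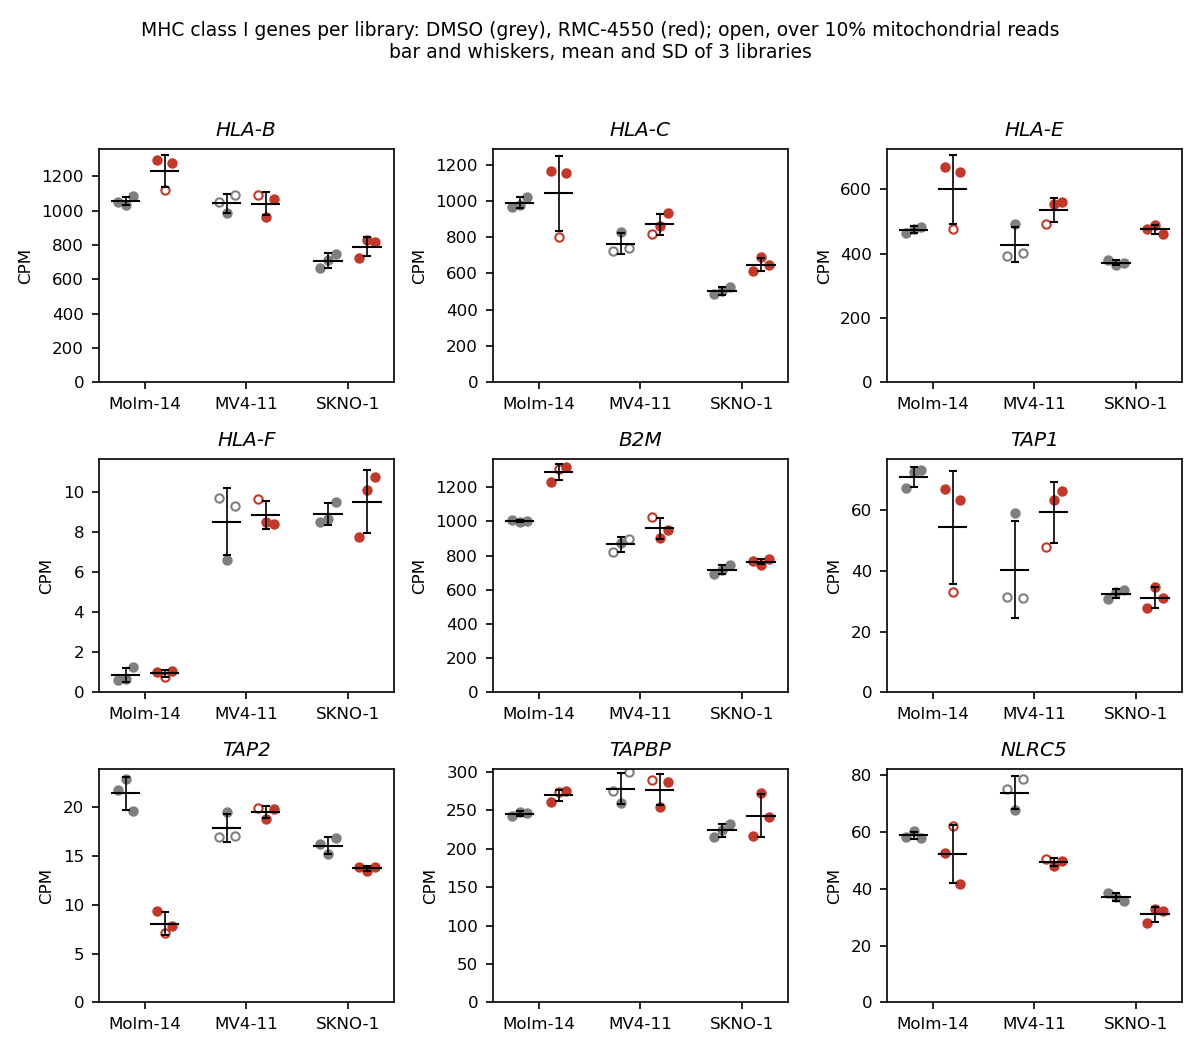
CPM of each member in each library of the 3 lines with DMSO (grey) and RMC-4550 (red); bars and whiskers are the mean and SD of 3 libraries, and open points have over 10% mitochondrial reads. HLA-F sits near 1 CPM in Molm-14 and between 6.60 and 10.8 CPM in the other lines, and TAP2 in Molm-14 with RMC-4550 sits between 7.11 and 9.35 CPM, below every other library.

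TAP2 gave the largest change of any member. In Molm-14 it had 21.7, 22.95 and 19.6 CPM with DMSO and 9.35, 7.11 and 7.80 with RMC-4550. MV4-11 libraries had 17.0, 19.5 and 17.1 CPM with DMSO and 19.9, 18.8 and 19.8 with RMC-4550. SKNO-1 libraries had 16.2, 15.2 and 16.9 CPM with DMSO and 13.9, 13.5 and 13.9 with RMC-4550. TAP2 fell in Molm-14 by 1.41 ± 0.11 on the log2 scale (n = 3 and 3), which is 2.66-fold, adjusted p = 7.1e-08. The MV4-11 change, 0.13, did not pass (adjusted p = 0.487). The SKNO-1 change of -0.22 had an adjusted p of 0.136, although those groups did not overlap, and an adjusted p of 0.0385 without the 4 libraries over 10% mitochondrial reads, all of which are from the other lines.

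The difference in the TAP2 response was tested directly. The log2 change in MV4-11 exceeded that in Molm-14 by 1.54 ± 0.15 (adjusted p = 2.2e-05), and that in SKNO-1 exceeded it by 1.18 ± 0.15 (adjusted p = 1.3e-04). MV4-11 and SKNO-1 were not called different (SKNO-1 minus MV4-11, -0.35, interval of 2 SE from -0.65 to -0.05, adjusted p = 0.338). TAP2 was the 1 member of 9 called in each of the first 2 of these comparisons, in which 17.2% and 9.53% of all tested genes were called. In the comparison of SKNO-1 with MV4-11 none of the 9 passed (1, TAP2, had an unadjusted p under 0.05), against 1.55% of all genes. Among libraries with at most 10% mitochondrial reads, the Molm-14 change was -1.32.

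TAP2 (chr6:32821833-32838780, minus strand) has an uncertain count. Of the 100-base windows of its transcript, 79.8% also occur in AL669918.1, a same-strand gene that shares 2064 exon bases with it. AL669918.1 had 1 read in 1 SKNO-1 library and none in the other 17. How reads shared by both genes were counted is not given in the sources used here, and if they went to neither, the TAP2 count rests on the part of the transcript that the other gene lacks. The TAP2 window holds 1 interferon element close to the start, in capitals below, and no kappaB or CCAAT match.
TAP2, chr6:32838781-32838989, minus strand: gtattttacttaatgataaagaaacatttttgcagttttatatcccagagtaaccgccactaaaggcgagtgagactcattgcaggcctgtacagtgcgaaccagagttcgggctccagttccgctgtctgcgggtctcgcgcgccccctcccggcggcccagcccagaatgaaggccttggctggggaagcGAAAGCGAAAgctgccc

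TAP1 (chr6:32845209-32853978, minus strand), the other part of the transporter, had 67.2, 72.7 and 73.3 CPM in Molm-14 with DMSO and 67.0, 33.1 and 63.4 with RMC-4550. In MV4-11 it had 31.5, 59.0 and 31.0 CPM with DMSO and 48.0, 63.5 and 66.4 with RMC-4550. In SKNO-1 it had 30.9, 33.2 and 33.7 CPM with DMSO and 27.7, 34.6 and 31.2 with RMC-4550. The lowest library in Molm-14 and the 3 lowest in MV4-11 are the 4 with over 10% mitochondrial reads. No TAP1 change passed: the log2 change was 0.60 ± 0.25 for MV4-11 (adjusted p = 0.132), -0.45 ± 0.25 for Molm-14 (0.149) and -0.07 ± 0.25 for SKNO-1 (0.872).

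Among libraries with at most 10% mitochondrial reads, the TAP1 changes were -0.12 in Molm-14 and 0.14 in MV4-11. Among those over it, the MV4-11 change was 0.62, with 2 libraries and 1. The response of TAP1 in MV4-11 exceeded that in Molm-14 by 1.05 ± 0.35, adjusted p = 0.0508, and by 0.37 with the mitochondrial share as a covariate (adjusted p = 0.0344). Leaving out replicate 1 or 3 of Molm-14 with RMC-4550, replicate 2 of MV4-11 with DMSO or replicate 1 of MV4-11 with RMC-4550 took it past the threshold, at a difference of up to 1.36 with adjusted p from 0.0038 to 0.0371. Without all 4 libraries over 10% mitochondrial reads it was 0.26 and not called (adjusted p = 0.210). The MV4-11 change passed without replicate 2 with DMSO (0.91, adjusted p = 0.0109). The part of the mitochondrial share in these values was not tested beyond these comparisons. TAP1 shares 456 exon bases with the antisense gene PSMB8-AS1, which had 7.80 to 22.7 CPM over all libraries and was called higher with RMC-4550 in SKNO-1 (log2 change 0.77, adjusted p = 0.0296).

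**Figure D2:**
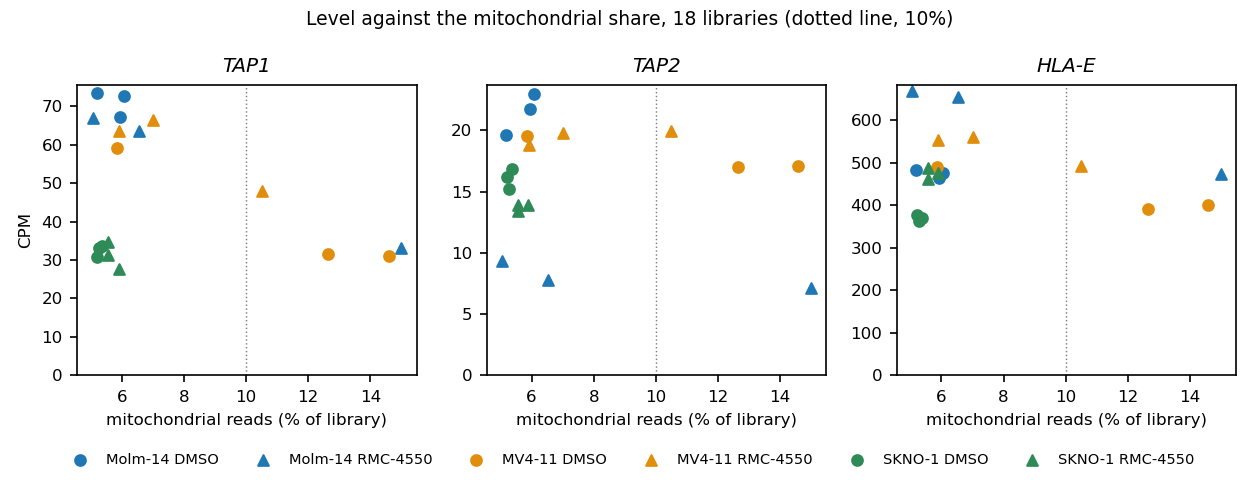
CPM of TAP1, TAP2 and HLA-E in each of 18 libraries against the mitochondrial share of reads in percent, with circles for DMSO, triangles for RMC-4550 and a colour per line. The 4 libraries right of the dotted line at 10% have the lowest TAP1 values of their line, from 31.0 to 48.0 CPM, while TAP2 in Molm-14 with RMC-4550 is at most 9.35 CPM on either side of it.

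TAPBP (chr6:33299694-33314387, minus strand) was the steadiest member. It had 242, 247 and 247 CPM in Molm-14 with DMSO and 261, 273 and 274 with RMC-4550. The MV4-11 values were 275, 259.5 and 299 CPM with DMSO and 289.5, 254 and 287 with RMC-4550. The SKNO-1 values were 215, 224 and 232 CPM with DMSO and 216, 272 and 241 with RMC-4550. Its log2 changes of 0.13, -0.01 and 0.11 did not pass (adjusted p = 0.217, 0.971 and 0.368). The interferon elements of TAP1, TAPBP and HLA-F are shown with 10 bases on each side, again with the match in capitals, on whichever strand it fell. TAP1, TAPBP and B2M each hold 2 overlapping matches.
TAP1, chr6:32853819-32853848, minus strand: aggcggccgcTTTCGATTTCgctttcccct
TAPBP, chr6:33314079-33314108, minus strand: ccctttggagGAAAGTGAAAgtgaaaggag
HLA-F, chr6:29723268-29723297, plus strand: ctccccagagTTTCTCTTTCtctcccaacc
Of the 7 members matched, 5 thus hold the interferon element (B2M, TAP1, TAP2, TAPBP and HLA-F), and HLA-B and HLA-C hold its short form. TAP1 has 2 RefSeq starts, and the window before the other start holds no match to any of the motifs. Members with the element included 1 that rose in Molm-14 (B2M), 1 that fell there (TAP2) and 3 that were not called in any line.

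NLRC5 (chr16:56989485-57083531, plus strand) fell in MV4-11 and had negative changes in the other lines. In MV4-11 it had 75.3, 67.7 and 78.8 CPM with DMSO and 50.5, 48.0 and 49.9 with RMC-4550, with no overlap. In Molm-14 it had 58.3, 60.2 and 57.9 CPM with DMSO and 52.6, 62.3 and 41.7 with RMC-4550, and the high value, 62.3, is replicate 2. In SKNO-1 it had 38.6, 37.1 and 35.8 CPM with DMSO and 27.9, 32.9 and 32.1 with RMC-4550, with no overlap. NLRC5 fell in MV4-11 by 0.58 ± 0.12 on the log2 scale (n = 3 and 3), which is 1.49-fold, adjusted p = 0.0030. The Molm-14 change, -0.19 ± 0.12, did not pass (adjusted p = 0.182). Neither did the SKNO-1 change, -0.26 ± 0.12, at an adjusted p of 0.104. Without the 4 libraries over 10% mitochondrial reads they were -0.33 (adjusted p = 0.0043) and -0.26 (adjusted p = 0.0097), and NLRC5 in MV4-11 was at -0.47 among the libraries under the limit and -0.61 among those over it. The response was not called different between any pair of lines (MV4-11 minus Molm-14, -0.38, adjusted p = 0.108). That difference passed on leaving out the RMC-4550 replicate 3 of Molm-14 (-0.54, adjusted p = 0.0151) and without replicate 2 of MV4-11 with DMSO (-0.45, adjusted p = 0.0450).

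CIITA, the class II counterpart of NLRC5, moved the other way. It had 1.56, 1.44 and 1.00 CPM in Molm-14 with DMSO and 1.64, 2.18 and 2.04 with RMC-4550. In MV4-11 it had 33.3, 35.2 and 22.4 CPM with DMSO and 71.4, 100.5 and 105.9 with RMC-4550, and in SKNO-1 41.0, 42.0 and 36.6 with DMSO and 179, 212 and 190.2 with RMC-4550. CIITA rose in SKNO-1 by a log2 change of 2.28, with an adjusted p of 4.2e-07. The MV4-11 rise was 1.62, with an adjusted p of 4.2e-05, and the Molm-14 rise was 0.55, with an adjusted p of 0.0295. Within libraries, the ratio of NLRC5 to CIITA in CPM ran from 1.92 to 3.51 in MV4-11 with DMSO and from 0.471 to 0.708 with RMC-4550. In SKNO-1 it ran from 0.883 to 0.977 and from 0.155 to 0.169, and in Molm-14 from 37.5 to 57.8 and from 20.5 to 32.1.

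**Figure D3:**
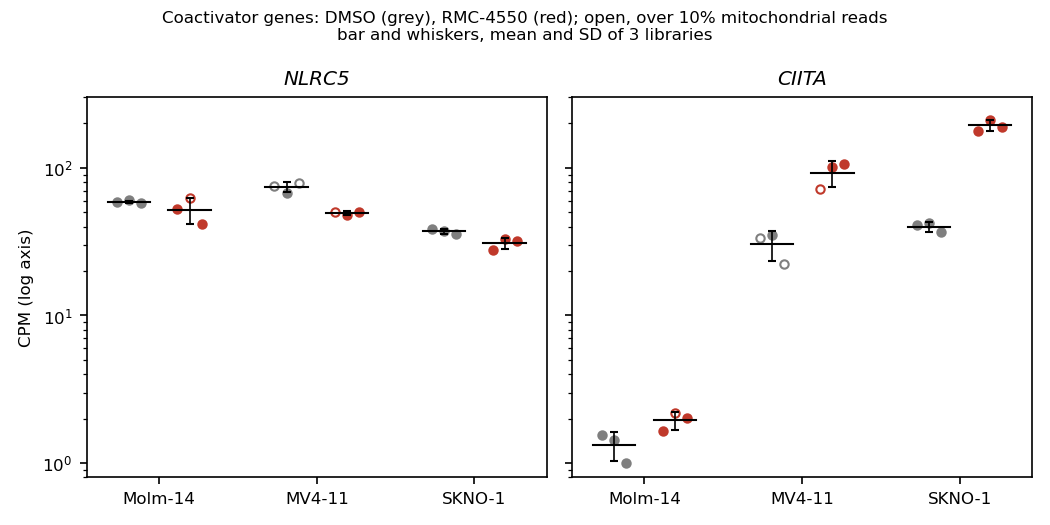
CPM of NLRC5 and CIITA in each library on a log axis, DMSO in grey and RMC-4550 in red, with the mean and SD of 3 libraries. In MV4-11 and SKNO-1 the RMC-4550 libraries lie below the DMSO libraries for NLRC5 and above them for CIITA.

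Counted over the members, RMC-4550 changed 3 of 9 in Molm-14 (HLA-E and B2M higher, TAP2 lower), 2 of 9 in SKNO-1 (HLA-C and HLA-E higher) and 1 of 9 in MV4-11 (NLRC5 lower). The same test called 46.7% of all genes in Molm-14, 27.1% in SKNO-1 and 13.9% in MV4-11, so that the members' counts lie close to or below the background. Their median log2 change was 0.09 in SKNO-1 and 0.13 in each other line, against -0.05 over all tested genes in SKNO-1, -0.06 in Molm-14 and -0.01 in MV4-11. The share of all called genes that were higher in SKNO-1 was 40.0% with the deposited scaling and 50.6% with median-ratio scaling.

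**Figure D4:**
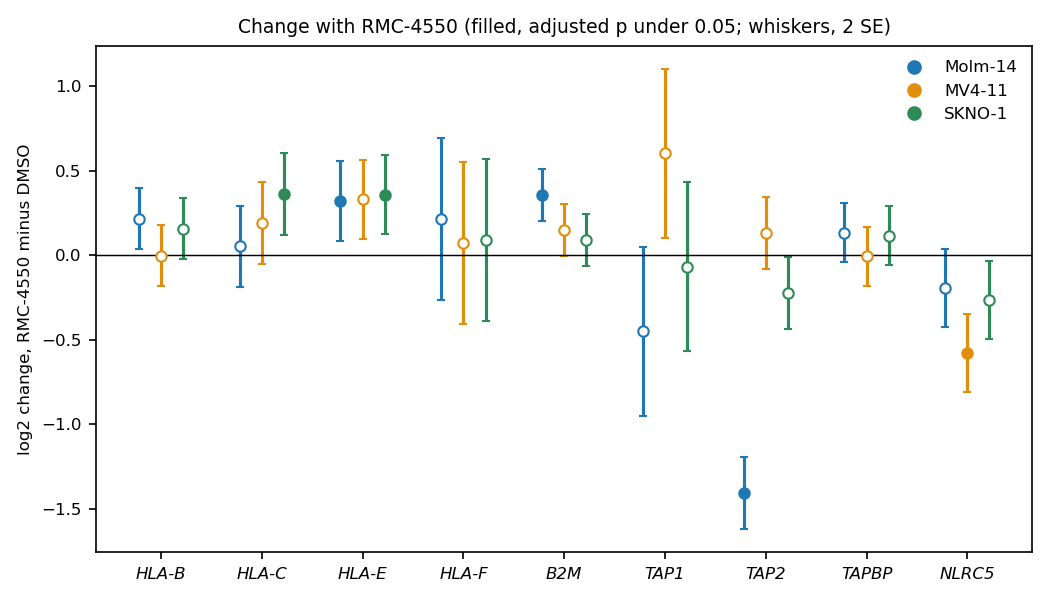
Log2 change with RMC-4550 minus DMSO for the 9 members, with a colour per line; whiskers are 2 SE and filled points have an adjusted p under 0.05. TAP2 in Molm-14 lies at -1.41, apart from its values of 0.13 and -0.22 in the other lines, and the heavy chain and B2M points all lie between 0.00 and 0.36.

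Without drug, SKNO-1 had the lowest levels of most members. Against Molm-14, 7 of 9 were called lower and HLA-F higher, where 64.8% of all genes were called. The log2 differences were -0.58 for HLA-B, -0.97 for HLA-C, -0.35 for HLA-E, -0.48 for B2M, -1.12 for TAP1, -0.41 for TAP2 and -0.66 for NLRC5, with adjusted p of at most 0.0146. TAPBP was not called (-0.13, adjusted p = 0.187). Against MV4-11, 5 of 9 were called lower in SKNO-1, where 41.1% of all genes were called: HLA-B (-0.56), HLA-C (-0.59), B2M (-0.27), TAPBP (-0.31) and NLRC5 (-0.99). The call of B2M was lost without replicate 3 of MV4-11 with DMSO (adjusted p = 0.0514), and so was that of TAPBP (adjusted p = 0.0557). Without the 4 libraries over 10% mitochondrial reads, TAP1 (-0.86) and HLA-E (-0.41) were called lower as well, and TAPBP was not (-0.21, adjusted p = 0.0871).

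Between MV4-11 and Molm-14, 6 of 9 levels were called different, against 53.4% of all genes. HLA-F (3.32) and NLRC5 (0.33) were higher in MV4-11, and HLA-C (-0.38), B2M (-0.22), TAP1 (-0.88) and TAP2 (-0.26) lower. The calls of HLA-F and TAP1 held in all 20 alternative settings run, although the TAP1 difference was -0.27 (adjusted p = 0.0371) without the 4 libraries over 10% mitochondrial reads, while those of TAP2, NLRC5, B2M and HLA-C were lost in 13, 8, 7 and 4 of them. Among them was the setting without replicate 1 of MV4-11 with DMSO, in which none of these 4 was called, with adjusted p from 0.0603 to 0.142. Leaving out replicate 3 of that group ended the calls of TAP2, NLRC5 and HLA-C, and each of the 3 Molm-14 libraries with DMSO ended at least 1 of the 4 when left out. The TAP2 call, at an adjusted p of 0.0483, was also lost on leaving out the RMC-4550 replicate 3 of Molm-14 or any 1 MV4-11 library with RMC-4550. Without the 4 libraries over 10% mitochondrial reads, the differences were -0.13 for TAP2 and 0.20 for NLRC5. In order of level, NLRC5 thus ran from MV4-11 over Molm-14 to SKNO-1. HLA-B stood at like levels in Molm-14 and MV4-11 (log2 difference -0.02, interval of 2 SE from -0.20 to 0.16) and lower in SKNO-1.

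The genes that make class I peptides were called lower with RMC-4550 in Molm-14, the line in which 25.2% of all genes were called lower, against 16.2% in SKNO-1 and 8.03% in MV4-11. Of the 5 immunoproteasome genes, the response was called higher than in Molm-14 for 3 in MV4-11, where 17.2% of all genes were called in either direction, and for 2 in SKNO-1, where 9.53% were. All 5 genes of the immunoproteasome list (PSMB8, PSMB9, PSMB10, PSME1 and PSME2, the interferon-inducible subunits and the activator of the proteasome) fell there. PSMB9 had 37.4, 37.1 and 35.9 CPM with DMSO and 26.2, 26.2 and 25.2 with RMC-4550, a log2 change of -0.51, and PSMB8 changed by -0.54 and PSME2 by -0.60. Of these genes, PSMB8 and PSMB9 lie close to the transporter: TAP2, PSMB8, PSMB9 and TAP1 lie in that order within 37.8 kb (chr6:32821833-32859585). In MV4-11 none of the 5 was called by limma, and 1 had an unadjusted p under 0.05. In SKNO-1 PSMB8 rose (0.24) and PSME2 fell (-0.54). Over the low-mitochondrial libraries, 2 of the 5 were called higher and 2 lower in SKNO-1. The 3 constitutive subunits that the immunoproteasome replaces, PSMB5, PSMB6 and PSMB7, fell in Molm-14 as well, by 0.45, 0.77 and 0.26 on the log2 scale. Of the 3, PSMB6 alone was called in SKNO-1 (-0.80). None passed in MV4-11, with 0 of 3 at an unadjusted p under 0.05. Without the 4 libraries over 10% mitochondrial reads, all 3 were called lower in SKNO-1 and in Molm-14, and PSMB6 was called lower in MV4-11 (-0.36, adjusted p = 0.0088).

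Of 6 loading chaperones and trimming enzymes, 3 fell in Molm-14 and none was called in the other lines, where 1 in MV4-11 and 0 in SKNO-1 had an unadjusted p under 0.05, against the shares of all genes called lower given above. They were CALR and PDIA3, which fold and hold the heavy chain (-0.47 and -0.38), and ERAP1, which trims peptides (-0.82). ERAP1 had 62.0, 22.3 and 57.2 CPM with RMC-4550 in Molm-14 against 74.6 to 77.1 with DMSO, and the low value is replicate 2. Without the 4 libraries over 10% mitochondrial reads, 5 of the 6 were called lower and 1 higher in Molm-14, and all 5 immunoproteasome genes were again called lower there. In that setting ERAP1 was called lower in MV4-11 (-0.32, adjusted p = 0.0222), and TAPBPL (0.31) and ERAP2 (0.18) were called higher in SKNO-1.

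Factors that bind class I promoters moved in both directions. IRF7 and IRF9, which act in the type I interferon response, rose in all 3 lines, by 1.53, 1.26 and 0.86 (IRF7) and 1.05, 1.06 and 0.49 (IRF9), in the order Molm-14, MV4-11, SKNO-1. IRF1, a direct activator of class I genes after interferon gamma, was not called in any line with all libraries (0.17, 0.16 and 0.30). IRF1 was called higher, over the low-mitochondrial libraries, in MV4-11 (0.42, adjusted p = 0.0062) and SKNO-1 (0.30, adjusted p = 0.0016). In Molm-14, 4 of 17 factors rose and 6 fell, where 21.5% and 25.2% of all genes did, and among those that fell were IRF2 (-0.57), NFYA (-0.68), RFX5 (-0.51) and RFXAP (-0.47). In SKNO-1, 4 rose and 4 fell, where 10.8% and 16.2% of all genes did, and RFX5 (0.43) and RFXAP (0.59) were among those that rose. Over the low-mitochondrial libraries, 5 of the 17 were called higher and 8 lower in Molm-14, and 9 higher and 5 lower in SKNO-1. The shares above do not apply to these counts, as 7818 of all genes were called in SKNO-1 in that fit, against 3969 with all libraries.

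Of 7 interferon receptor and kinase genes, 2 rose and 1 fell in Molm-14, none was called in MV4-11 (1 had an unadjusted p under 0.05) and 2 fell in SKNO-1. All genes were called in either direction at 46.7%, 13.9% and 27.1% in these lines. Over the low-mitochondrial libraries, 3 of the 7 were called higher and 1 lower in Molm-14, and 3 higher and 2 lower in SKNO-1. In that setting 7818 of all genes were called in SKNO-1, against 3969 with all libraries. IFNGR1, a chain of the interferon gamma receptor, fell in Molm-14 (-0.21) and SKNO-1 (-0.28), and TYK2 rose in Molm-14 (0.50). Of the interferon genes themselves, IFNB1 had at most 2 reads in any DMSO library and at most 6 with RMC-4550, the latter in MV4-11. IFNK, IFNL1 and IFNL3 had at most 2 reads in any library.

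Genes induced by interferon had larger changes than the class I members in all 3 lines, and class II genes did in MV4-11 and SKNO-1. All 9 interferon-induced genes tested in Molm-14 rose, and all 10 in MV4-11 and in SKNO-1, against 21.5%, 5.85% and 10.8% of all genes called higher. Their median log2 change was 2.02, 4.18 and 2.24. In MV4-11, IFIT1 had 1.08, 0.972 and 1.08 CPM with DMSO and 34.2, 30.3 and 25.1 with RMC-4550. All 9 class II genes tested in MV4-11 and all 10 in SKNO-1 rose, with medians of 1.51 and 2.44, and in Molm-14 2 of 4 rose, CIITA and HLA-DMA, with a median of 0.42 over the 4. Over the low-mitochondrial libraries, every interferon-induced gene still tested was called higher (8, 6 and 10), as were 3 of 4, 7 of 7 and 10 of 10 class II genes, in the order Molm-14, MV4-11, SKNO-1. HLA-DRA had 17.4, 18.1 and 19.8 CPM in SKNO-1 with DMSO and 120.2, 123 and 132 with RMC-4550. HLA-C, by comparison, had a fitted rise of 1.29-fold in the same libraries. The genes of both lists were known to rise from earlier results of these data, and their counts are no independent evidence of that direction. A gene could also enter the test through its 3 RMC-4550 libraries alone. Genes near the floor with DMSO were thus tested mainly where they rose, so that filter partly sets the counts and medians. Over the low-mitochondrial libraries of Molm-14, MX1 was not tested, with a log2 change of -0.02.

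**Figure D5:**
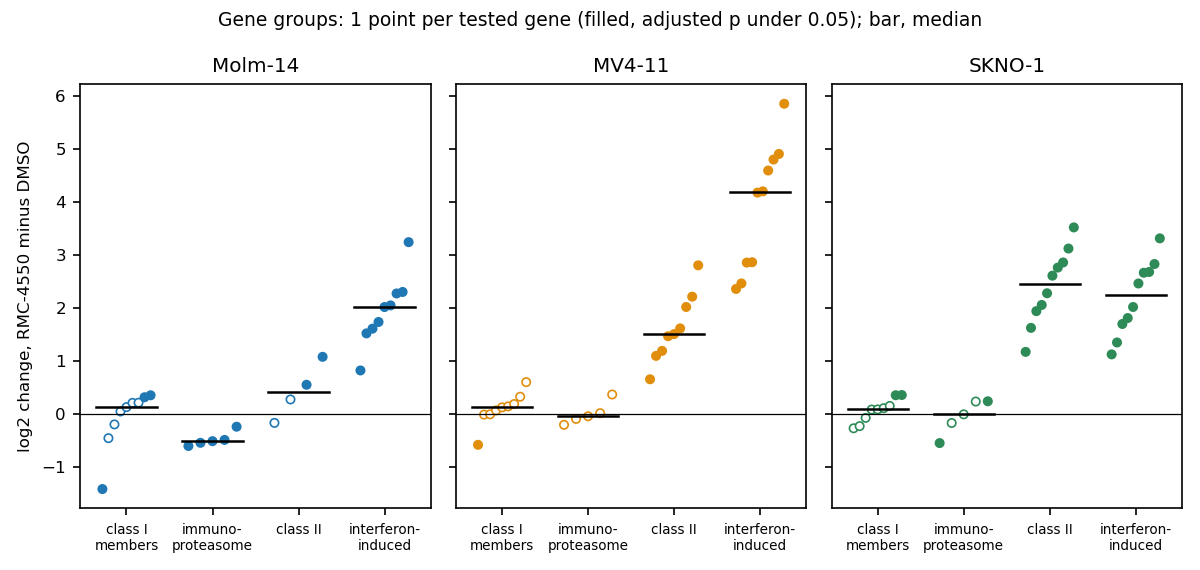
Log2 change with RMC-4550 for each tested gene of 4 groups, with a panel per line; filled points have an adjusted p under 0.05 and bars are medians. The class I members have medians of 0.13, 0.13 and 0.09, and the interferon-induced genes medians of 2.02, 4.18 and 2.24.

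Genes whose products act on class I molecules, can silence their genes, or resemble class I chains, moved in both directions. EZH2, the methyltransferase of the Polycomb complex that can silence class I genes, fell in all 3 lines (-0.77, -0.44 and -0.40), and in Molm-14 its partners EED and SUZ12 fell as well. In the fit of the low-mitochondrial libraries, SUZ12 fell in Molm-14 (-0.49, adjusted p = 1.2e-05) and SKNO-1 (-0.46, adjusted p = 1.0e-05). EED also fell in SKNO-1 (-0.40, adjusted p = 0.0039). Of the same list of 7 genes, TMEM127 rose in this fit in Molm-14 (0.43, adjusted p = 4.6e-06) and SKNO-1 (0.41, adjusted p = 3.1e-06). In MV4-11, with 1 DMSO library left, SUZ12 changed by -0.41 and TMEM127 by 0.35. SUSD6 (0.35) and WWP2 (0.23) rose in Molm-14 in the same fit. In this fit 3 of the 7 were higher and 3 lower in Molm-14, and 1 and 3 in SKNO-1. MICB and ULBP2, ligands of the natural killer receptor NKG2D, fell in all 3 lines, MICB by 0.42, 0.23 and 0.41 on the log2 scale and ULBP2 by 0.84, 0.69 and 0.55. FCGRT, the heavy chain of the neonatal Fc receptor that also pairs with B2M, rose in Molm-14 (1.37) and SKNO-1 (0.57), and over the same libraries in MV4-11 too (0.87, adjusted p = 7.7e-05). PTPN11, which encodes the drug target, fell in Molm-14 (adjusted p = 0.0013, and -0.74 among libraries with at most 10% mitochondrial reads) and SKNO-1 (-0.64, adjusted p = 0.0367), and its change of -0.30 in MV4-11 did not pass. The MV4-11 change was -0.68 over the low-mitochondrial libraries (adjusted p = 2.1e-04).

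By their 6 group means, the genes nearest to NLRC5 among 11005 with a mean of at least 5 CPM were ESF1, BANF1 and MYL12A, with a root mean square difference of 0.06 to 0.10 on the centred log2 scale. Those nearest to TAP1 were TXNIP, CD83 and FOSL2 (0.13 to 0.14). Nearest to HLA-E were an unnamed gene (ENSG00000267317), JPX and DHRS4L2 (0.06 each). None of these is a gene of the class I lists. The likeness is a description over 6 groups that share library depth and scaling.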

How the data were processed

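Polyadenylated RNA of 18 cultures was read on DNA nanoball arrays (per the labels' protocols). The authors deposited 1 table of log2 values. Its values had the form of a logarithm of reads plus 0.5 per 1000000 of an effective library, and undoing it gave whole reads (within 0.02) for 100% of values under 200 reads in every library. The submitters' processing notes name FastQC, STAR, limma and GRCh38. The counter, annotation, strand setting and filters are not given in the sources used here. CPM were computed from the recovered reads. Reads amplified without molecular identifiers are not independent molecules.

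The deposited log2 values were fitted with limma 3.58.1 in R 4.3.3 (lmFit, eBayes with a trend, two-sided, 1 coefficient per group, 18 libraries). Genes needed at least 1 CPM in at least 3 libraries, and again in at least 3 libraries of the lines compared. The p-values were adjusted by Benjamini-Hochberg over all genes tested in a contrast. Calls were made at an adjusted p under 0.05. The fit shares 1 spread per gene over groups. On simulated data with groups of unequal spread, it returned a share of false calls above that level in Molm-14. Members and gene lists were chosen with earlier results of these data known. All members were named, with up to 4 called genes per list and line by size of change. Positions and transcripts came from GENCODE 29 and promoters from RefSeq (GRCh38.p14). The promoter windows printed for HLA-B, HLA-C, B2M and TAP2 end before the first annotated transcript start. The short stretches of TAP1, TAPBP and HLA-F lie before the RefSeq start but inside the gene as annotated in GENCODE 29. Plots used matplotlib 3.10.9 and Python 3.11.15. The alternatives were log2(CPM + 1), no filter, median-ratio scaling, a separate fit, the replicate number as a block, voom weights, the mitochondrial share as a covariate, no libraries over 10% mitochondrial reads, and each library left out. Counts over the gene lists without those libraries were chosen after seeing the data.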

Additional observations from a re-analysis of the deposited data

Results flagged for a closer look

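The response of TAP2 differed between lines by a test of the difference itself. The log2 change with RMC-4550 in MV4-11 exceeded that in Molm-14 by 1.54, and that in SKNO-1 exceeded that in Molm-14 by 1.18. Across all 20 alternative settings run for each, these differences ran from 1.30 to 1.65 and from 1.10 to 1.29 and stayed past the threshold, with adjusted p of at most 0.0024. TAP2 shares exon bases with AL669918.1, and whether the share of its reads that was counted differs between groups was not tested. Groups of 3 libraries were not examined for outlying values.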

How the results depend on the processing

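Of 81 results (9 members in 9 comparisons), 27 were called, and 18 of these stayed called in every alternative. B2M and TAP2 in Molm-14 and NLRC5 in MV4-11 were among the 18. With the mitochondrial share as a covariate, the number of members called went from 3 to 6 in Molm-14, from 1 to 4 in MV4-11, from 2 to 4 in SKNO-1, from 6 to 3 for the levels of MV4-11 against Molm-14, from 5 to 8 for those of SKNO-1 against MV4-11, and from 1 to 3, 1 to 2 and 0 to 1 for the 3 differences in response. Without the libraries over 10% mitochondrial reads it was 6 in Molm-14, 2 in MV4-11, 5 in SKNO-1, and 3 and 2 for the responses of MV4-11 and SKNO-1 against Molm-14. With no filter it was 0 in SKNO-1 and 3 for the levels of MV4-11 against Molm-14, and with a separate fit 5 and 3. Median-ratio scaling gave 2 in MV4-11 and 2 for the response of MV4-11 against Molm-14, as did log2(CPM + 1) and voom weights for the latter. Leaving out 1 library gave 2 to 6 in Molm-14, 1 to 3 in MV4-11, 0 in every case in SKNO-1, 2 to 7, 8 and 3 to 5 for the levels, and 1 to 3, 1 and 0 for the responses. The difference in the HLA-E response between MV4-11 and Molm-14, 0.01, turned to -0.28 with the covariate and -0.30 without the high-mitochondrial libraries. The causes were not tested.

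Over all genes, 2045 were called in MV4-11, against 674 in a separate fit, 5054 with the covariate, 3897 without those libraries and 1177 without replicate 3 with RMC-4550. In SKNO-1, 3969 were called, against 8451, 7271 and 7818 in the first 3 of these settings. For the responses, 2666 (MV4-11 against Molm-14) became 1095 with a separate fit, 1748 with no filter and 1389 to 6170 on leaving out 1 library. For SKNO-1 against Molm-14, 1513 became 3908 with the covariate and 4074 without the libraries, and for SKNO-1 against MV4-11, 243 became 1310 and 808.

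The main fit did not treat same-numbered replicates as pairs. The correlations of their deviations ran from -0.40 to 0.59, and in Molm-14 from -0.05 to 0.00. These cannot settle whether the cultures were paired, as each group has 3 libraries and the mitochondrial share also varied. In MV4-11, DMSO replicate 3 and RMC-4550 replicate 1, both over 10% mitochondrial reads, had a correlation of 0.64. With the replicate number as a block, 2 members were called for the response of MV4-11 against Molm-14, where TAP1 was added (adjusted p = 0.0361). HLA-F in Molm-14 rests on few reads, at 0.611 to 1.28 CPM.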

Other observations

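Per library, B2M was set against the summed heavy chains HLA-B, HLA-C, HLA-E and HLA-F. In the DMSO groups the ratio of CPM ran from 0.387 to 0.407 in Molm-14, from 0.377 to 0.402 in MV4-11 and from 0.449 to 0.452 in SKNO-1. With RMC-4550 it ran from 0.394 to 0.545 in Molm-14, from 0.369 to 0.424 in MV4-11 and from 0.371 to 0.420 in SKNO-1, where it lay below every DMSO library. The highest value in Molm-14 is that of replicate 2, the library with 14.99% mitochondrial reads. The ratio was chosen after seeing the data and was not tested.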
